A study of Mus musculus with 12 samples.

Results

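The transcripts described here encode 39 enzymes and transporters of central carbon metabolism, 18 of glycolysis, 6 of the pentose phosphate pathway and 15 of the tricarboxylic acid (TCA) cycle and its entry. They were chosen by name, from the textbook pathways, and found on the array through the RefSeq accession of each probe. They are 39 of 19802 genes that passed the filter on dim probes. The array carried 56 probes for them, and every member was well above background on all 12 arrays. Microglia, the macrophages that reside in the brain, were shaken off mixed glial cultures of newborn C57BL/6 mice, rested, and treated for 16 h. There were 3 groups of 4 arrays. The group labelled untreated received T cell medium (IMDM), the group labelled Th1 supernatant received medium in which Th1 cells had been restimulated through CD3 and CD28, and the group labelled Th17 supernatant received the corresponding Th17 culture medium. The study's methods describe dilution with an equal volume of fresh DMEM for Th1 supernatants and control medium, in sentences that name astrocytes. The same step is assumed here for microglia and for Th17 supernatants. The control medium had held no T cells, so that factors released by the T cells and the using up of nutrients by them cannot be told apart. Every group has arrays with the experiment numbers 12, 13, 14 and 16, and Th1 16 stands for the Th1 array of experiment 16. The study compared the groups to learn how effectors of these helper T cells change gene expression in glia.

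Glycolysis splits glucose into pyruvate in the cytosol, and lactate dehydrogenase turns pyruvate into lactate, which leaves the cell through monocarboxylate transporters. The pentose phosphate pathway branches off after the hexokinase step and supplies NADPH and ribose 5-phosphate, and the TCA cycle oxidises acetyl groups in mitochondria. Macrophages and microglia exposed to interferon-γ or microbial products are known for raised glycolysis, and the transcription factor subunit HIF1A is known to drive many glycolytic genes through short sites with the core ACGTG or GCGTG.

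The promoters of the 3 members with the largest rise (Pfkp, Hk3 and Hk2) and of the 2 members that fell (Idh2 and Tkt) after Th1 supernatant are shown first, so that the sites above can be seen beside the changes given below. Each sequence is the 250 bases before a RefSeq transcript start (assembly GRCm38.p6), written 5′ to 3′ on the gene's strand. Capitals mark ACGTG or GCGTG, or CACGT or CACGC where the core lies on the other strand.
Pfkp (chr13:6648772-6649021, minus strand): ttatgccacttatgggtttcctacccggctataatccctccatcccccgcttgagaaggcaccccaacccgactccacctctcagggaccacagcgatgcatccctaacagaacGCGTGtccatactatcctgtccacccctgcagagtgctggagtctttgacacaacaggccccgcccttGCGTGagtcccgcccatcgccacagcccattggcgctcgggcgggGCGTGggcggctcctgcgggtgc
Hk3 (chr13:55021386-55021635, minus strand): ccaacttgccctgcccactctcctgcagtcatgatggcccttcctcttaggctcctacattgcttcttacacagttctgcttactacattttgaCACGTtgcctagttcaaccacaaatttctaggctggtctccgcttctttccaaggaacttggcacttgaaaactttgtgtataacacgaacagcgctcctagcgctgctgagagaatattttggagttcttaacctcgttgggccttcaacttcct
Hk2 (chr6:82774455-82774704, minus strand): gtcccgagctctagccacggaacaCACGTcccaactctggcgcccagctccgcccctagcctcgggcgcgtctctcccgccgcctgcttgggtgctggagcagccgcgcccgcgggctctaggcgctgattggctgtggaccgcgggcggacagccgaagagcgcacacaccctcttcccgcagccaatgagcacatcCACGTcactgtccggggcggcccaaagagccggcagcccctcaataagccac
Idh2 (chr7:80115351-80115600, minus strand): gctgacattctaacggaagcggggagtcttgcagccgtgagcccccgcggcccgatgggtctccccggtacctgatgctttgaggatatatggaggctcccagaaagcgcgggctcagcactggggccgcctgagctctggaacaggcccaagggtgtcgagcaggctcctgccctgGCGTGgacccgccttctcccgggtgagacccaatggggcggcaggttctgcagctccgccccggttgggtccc
Tkt (chr14:30548881-30549130, plus strand): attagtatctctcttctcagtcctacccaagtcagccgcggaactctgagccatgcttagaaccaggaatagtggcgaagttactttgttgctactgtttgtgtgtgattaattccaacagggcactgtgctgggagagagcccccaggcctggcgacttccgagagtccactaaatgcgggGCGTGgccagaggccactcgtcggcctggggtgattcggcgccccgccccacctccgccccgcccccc
The core stood 3 times in the Pfkp window, 2 times in the Hk2 window and 1 time in each of the others, members that fell included. RefSeq promoters were matched for 38 of the 39 members (all but Idh3a) in 56 windows, since some genes have several starts. The core was present in 23 of 29 glycolysis windows (79.3%), 6 of 7 pentose phosphate windows (85.7%) and 14 of 20 TCA cycle windows (70%). It was present in 38.6% of all 32851 windows and in 44.0% of the 21263 windows of protein-coding genes. Both cores hold the letters CG, and the part of CG-rich promoters in these shares was not tested. ACGTG is also part of CACGTG, the E-box read by MYC and other factors. A match of letters is a description of these windows and not a site shown to be bound.

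Signals are given in units of normalised intensity, in which the 75th percentile of each array is 1500. Changes are differences of log2 signal with the standard error of a limma fit over all 12 arrays. A gene was called where its Benjamini-Hochberg adjusted p over all 19802 genes was under 0.01 and the change exceeded 2-fold. Only called genes are said to have risen or fallen. Each probe has its own brightness, so that signals are compared between arrays and never between genes.

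Before scaling, the 75th percentile of the raw signal ran from 1200 to 2214 intensity units over the arrays, and 54.5% to 65.0% of the probes were well above background. Of 13 microglia markers 12 were kept and were above background on all arrays (Cd68 was not kept), and their summed signal was 1190920 to 1578650 units on untreated arrays, 962268 to 1038310 on Th1 arrays and 1199950 to 1615720 on Th17 arrays. Of 10 astrocyte markers 7 were kept (not Slc1a2, Gja1 or Sox9), with sums of 14172 to 28704, 6022 to 7290 and 12968 to 27084 units in the same order, and the 2 highest sums were those of untreated 14 and Th17 14. The summed signal of 5 kept endothelial markers was 14633 to 18966 units on untreated arrays and 20027 to 28175 on Th1 arrays. That of 6 kept T cell markers was 9836 to 11223 and 7495 to 8661 units. That of 5 kept neuron markers was 6115 to 16240 and 4243 to 5599 units. A sum is carried by the brightest markers, and single markers went either way. Of the microglia markers 3 rose and 4 fell after Th1 supernatant (median -0.23), of the astrocyte markers none rose and 2 fell (median 0.15), and of the endothelial markers 1 rose (median 0.94). Of the T cell markers 1 rose and 2 fell (median -0.23), and of the neuron markers 1 rose and 1 fell (median -0.05). These 5 sums did not overlap between untreated and Th1 arrays, those of oligodendrocyte lineage and of fibroblast and mural markers did, and the part of these cells in the changes below was not tested. In such bulk samples fewer cells of a type and less RNA per cell cannot be told apart. Without experiment 14, chosen for its astrocyte markers after the data were seen, 8 members were called after Th1 supernatant, as with it.

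After Th1 supernatant the glycolytic members were higher as a group, and the largest rises were those of hexokinase and phosphofructokinase genes. Of all 39 members 8 were called, where 15.4% of all tested genes were called in either direction. Of the 18 glycolytic members 6 rose and none fell, where 7.49% of all tested genes rose and 7.88% fell. All 18 had a positive log2 difference, with a median of 0.81 against -0.06 over all genes tested. The untreated and Th1 arrays did not overlap for 12 of the 18, which was so, in the higher direction, for 18.8% of all genes.

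**Figure D1:**
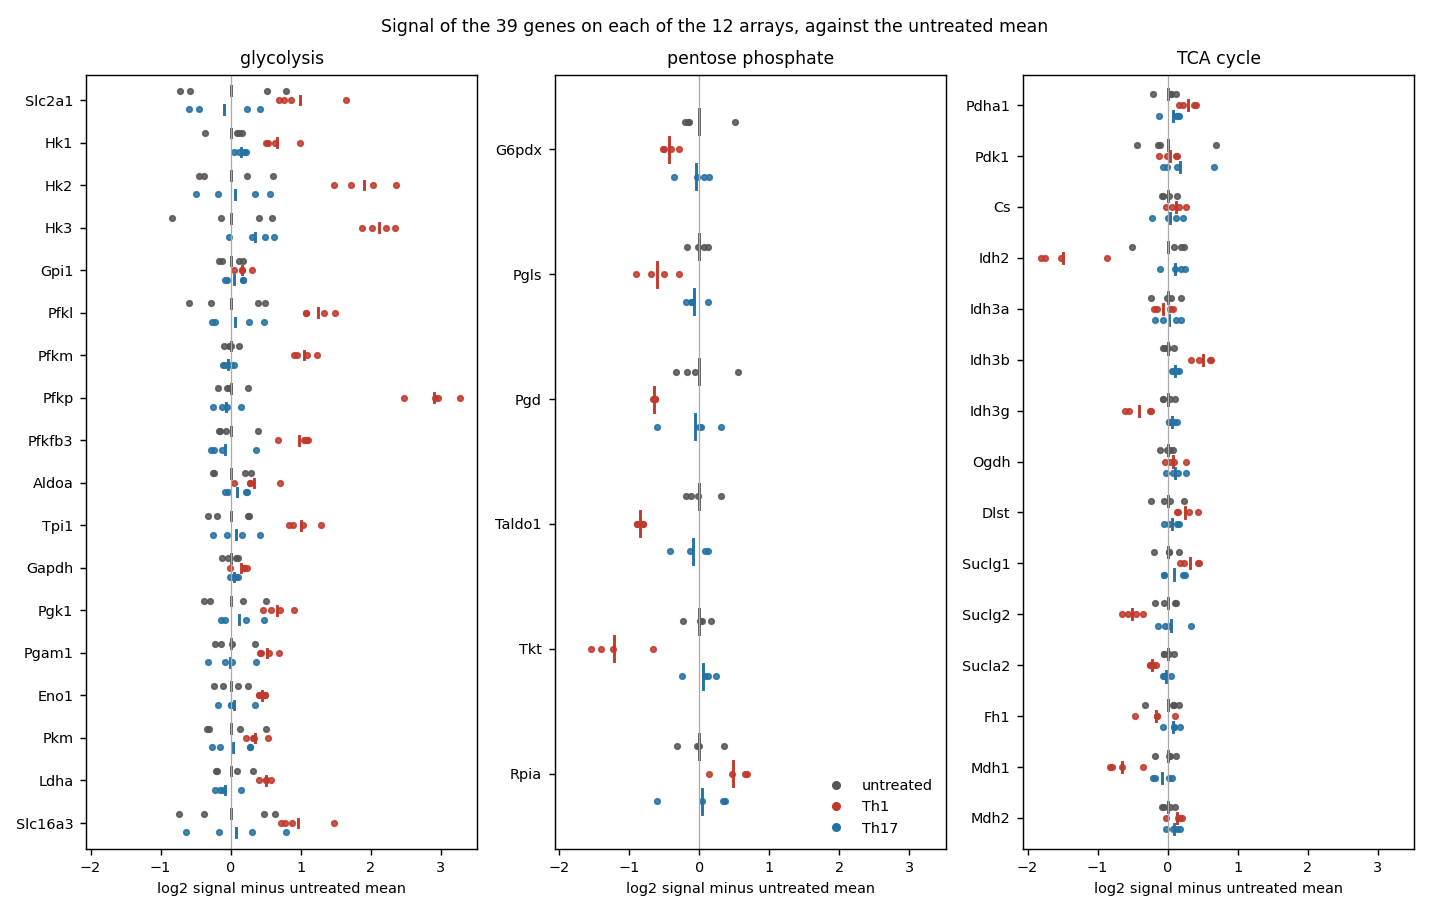
Log2 signal of each of the 39 genes on the 12 arrays, as the difference from the mean of the 4 untreated arrays. Points are arrays and ticks are group means, in grey for untreated, red for Th1 and blue for Th17. In glycolysis the red points lie to the right, farthest for Pfkp, Hk3 and Hk2, while in the pentose phosphate pathway the red points of 5 of the 6 genes lie to the left.

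Glucose enters microglia through facilitative transporters, of which GLUT1 (Slc2a1) is a member here. Slc2a1 gave 8071, 8922, 23159 and 19130 units on untreated arrays 12, 13, 14 and 16, and 21576, 24237, 42014 and 22625 units on the Th1 arrays in the same order. Its groups overlapped, since untreated 14 was above 2 of the Th1 arrays, and its difference of 0.99 ± 0.38 did not pass (adjusted p = 0.0509). The difference was 1.42 and 1.44 in experiments 12 and 13 and 0.24 in experiment 16.

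Hexokinases phosphorylate the glucose that enters and so hold it in the cell. Hk3 gave 34643, 23801, 14654 and 39547 units on untreated arrays 12, 13, 14 and 16, 122048, 106872, 96903 and 134242 on the Th1 arrays and 32545, 36881, 25936 and 40473 on the Th17 arrays. Every Th1 array lay above every other array, and Hk3 rose 4.34-fold (2.12 ± 0.27, adjusted p = 8.8e-05). Hk2, the inducible form in many tissues, gave 1927, 3111, 4018 and 2044 units without treatment, 8764, 10829, 13623 and 7383 after Th1 and 2329, 3906, 3371 and 1889 after Th17 supernatant. It rose 3.73-fold (1.90 ± 0.30, adjusted p = 0.00035), and its lowest Th1 array was above the highest of the 8 others. Hk1, the widely expressed form, gave 7706, 10527, 10772 and 11070 units without treatment and 14387, 14018, 19771 and 15360 after Th1 supernatant, groups that did not overlap. Its difference of 0.67 ± 0.14 was under 2-fold (adjusted p = 0.0028), and a second Hk1 probe gave 0.39.

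Phosphofructokinase is the main point of control of glycolysis, and all 3 of its subunit genes rose. Pfkp, the platelet-type subunit, gave 1674, 1512, 1651 and 2037 units on untreated arrays, 16488, 12912, 13302 and 9481 on Th1 arrays and 1652, 1434, 1570 and 1890 on Th17 arrays. Its rise of 7.49-fold (2.91 ± 0.16, adjusted p = 1.8e-07) had the smallest adjusted p of the 39 members, and the second Pfkp probe gave 2.11. Pfkl, the liver-type subunit, gave 2097, 2604, 4436 and 4148 units without treatment, 6660, 7955, 8882 and 6695 after Th1 and 2627, 2712, 3807 and 4401 after Th17 supernatant. It rose 2.37-fold (1.24 ± 0.25, adjusted p = 0.0020), by 1.67 in experiment 12 and 0.69 in experiment 16. Pfkm, the muscle-type subunit, gave 1109, 1170, 1284 and 1187 units without treatment, 2532, 2795, 2210 and 2288 after Th1 and 1098, 1126, 1193 and 1221 after Th17 supernatant. Its rise of 2.06-fold (1.04 ± 0.10, adjusted p = 8.3e-06) was small beside that of Pfkp and tight over the arrays. The Pfkm probe was averaged over 10 spots an array, while each probe of the other members had 1 spot. The Pfkm difference was 0.96, just under 2-fold, with normexp background correction and 0.98 without Th1 13. Pfkfb3 makes fructose 2,6-bisphosphate, an activator of phosphofructokinase. It gave 5612, 5992, 5677 and 8243 units without treatment and 12983, 10026, 13268 and 13600 after Th1 supernatant, and the groups did not overlap. Its difference of 0.97 ± 0.18 (adjusted p = 0.00094) fell short of 2-fold by a narrow margin, and 6 of the alternative settings put it over the threshold.

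Below phosphofructokinase, Tpi1 was the only glycolytic member called. Triosephosphate isomerase (Tpi1) gave 59558, 64636, 89135 and 88310 units without treatment, 131987, 151623, 181997 and 137591 after Th1 and 71809, 62544, 83155 and 98757 after Th17 supernatant. It rose 2.02-fold (1.01 ± 0.18, adjusted p = 0.00091), so close to the threshold that the call was lost in 4 of 19 other settings, at 0.94 with the slide as a block, 0.91 without untreated 12, 0.95 without untreated 13 and 0.92 without Th1 14. Of the 8 other enzymes from glucose 6-phosphate isomerase to lactate dehydrogenase (Gpi1, Aldoa, Gapdh, Pgk1, Pgam1, Eno1, Pkm and Ldha), none was called, and their differences ran from 0.15 for Gapdh to 0.66 ± 0.21 for Pgk1. Ldha, which makes lactate, gave 162276, 164508, 198930 and 233345 units without treatment and 266673, 249400, 279991 and 266102 after Th1 supernatant. Its groups did not overlap, at a difference of 0.50 ± 0.13 (adjusted p = 0.0092), and the other Ldha probes gave 0.58 and 0.74. Slc16a3, the lactate exporter MCT4, gave 11171, 14218, 25930 and 28802 units without treatment and 30404, 31784, 51773 and 34131 after Th1 supernatant. The lowest Th1 array was just above the highest untreated array, and the difference of 0.96 ± 0.36 was not called (adjusted p = 0.048).

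Gapdh, often used as a reference gene, was measured by 7 probes. The brightest, which stands for the gene, differed by 0.15 ± 0.09, and the 6 others by 0.53 to 0.81. Whether these probes also bind transcripts of near-identical gene copies was not tested. Gapdh was singled out after its values were seen.

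Most pentose phosphate members were lower on the Th1 arrays, though few by 2-fold. Of the 6, Tkt fell and none rose, where 7.88% of all tested genes fell and 7.49% rose. The untreated and Th1 arrays did not overlap, in the lower direction, for 5 of the 6, against 21.9% of all genes, and the median log2 difference was -0.62. With the arrays scaled to the 75th percentile alone this median was -0.40, and with the log2 value table that the authors deposited -0.39. Over the processing alternatives the difference of G6pdx came as near to 0 as -0.14 and that of Pgd as -0.37. In the oxidative branch, which makes NADPH, glucose 6-phosphate dehydrogenase (G6pdx) gave 34816, 33951, 55404 and 35209 units without treatment and 31792, 27576, 27252 and 29475 after Th1 supernatant. Untreated 14 stood far above the other untreated arrays, and the difference of -0.43 ± 0.17 was not called (adjusted p = 0.057). Lactonase (Pgls) differed by -0.60 ± 0.14 (adjusted p = 0.0042) and 6-phosphogluconate dehydrogenase (Pgd) by -0.64 ± 0.21 (adjusted p = 0.027), neither over 2-fold. The Th1 arrays held Pgd within a narrow range, 36578 to 37568 units, against 46286 to 85030 on untreated arrays.

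In the nonoxidative branch, which links sugar phosphates of the pathway back to glycolysis, transketolase (Tkt) gave 81645, 68408, 83002 and 90853 units without treatment, 27600, 34274, 30539 and 50843 after Th1 and 85752, 68141, 87525 and 95299 after Th17 supernatant. All 4 Th1 arrays were below all 8 others, and Tkt fell 2.31-fold (-1.21 ± 0.18, adjusted p = 0.00029). With the arrays scaled to the 75th percentile alone the difference was -0.99, just under 2-fold. Transaldolase (Taldo1) gave 246534, 219963, 308823 and 231256 units without treatment and 143070, 134339, 134489 and 143265 after Th1 supernatant, with no overlap and a difference of -0.85 ± 0.14 (adjusted p = 0.00050) that was under 2-fold. Rpia, which forms ribose 5-phosphate, had a positive difference of 0.49 ± 0.22 with overlapping groups (adjusted p = 0.097).

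The TCA cycle members did not share a direction. Of the 15, Idh2 fell and none rose, where 7.88% of all tested genes fell and 7.49% rose. Of their differences 8 were positive and 7 negative, and the median was 0.03. The untreated and Th1 arrays did not overlap for 3 in the higher and 5 in the lower direction, against 18.8% and 21.9% of all genes. Idh2 is the mitochondrial isocitrate dehydrogenase that reduces NADP. It gave 32216, 29073, 19252 and 31211 units without treatment, 8107, 9559, 7806 and 15016 after Th1 and 31421, 25311, 29532 and 32549 after Th17 supernatant. Every Th1 array was below every other array, and Idh2 fell 2.81-fold (-1.49 ± 0.22, adjusted p = 0.00024). The 3 subunits of the NAD-dependent isocitrate dehydrogenase, which serves the cycle itself, had values of either sign. The catalytic subunit Idh3a gave 7888, 7602, 6488 and 8720 units without treatment and 6681, 8047, 6850 and 7799 after Th1 supernatant, a difference of -0.06 ± 0.12. Idh3b gave 11784, 11405, 11196 and 12500 units without treatment and 15947, 17826, 14737 and 17921 after Th1 supernatant, with no overlap (0.50 ± 0.09, adjusted p = 0.0010). Idh3g gave 27505, 30868, 29444 and 27591 and 18969, 24173, 19644 and 24331 units, lower on every Th1 array (-0.41 ± 0.11, adjusted p = 0.0075). Under other processing the Idh3g difference came as near to 0 as -0.13.

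At the entry of the cycle, pyruvate dehydrogenase subunit Pdha1 differed by 0.29 ± 0.11 (adjusted p = 0.050), its inhibitory kinase Pdk1 by 0.03 ± 0.23 and citrate synthase (Cs) by 0.12 ± 0.11. The 2-oxoglutarate dehydrogenase subunits Ogdh and Dlst differed by 0.08 ± 0.10 and 0.25 ± 0.12, with overlapping groups. The probes of Ogdh disagreed. The probe in use and a second gave 0.08 and 0.04, and the remaining probe 1.25 ± 0.17. Of succinyl-CoA ligase, the shared subunit Suclg1 differed by 0.32 ± 0.12 (adjusted p = 0.044), the GTP-specific Suclg2 by -0.51 ± 0.12 (adjusted p = 0.0064) and the ATP-specific Sucla2 by -0.22 ± 0.08 (adjusted p = 0.038), and none of these had overlapping groups. Under other processing the Sucla2 difference came as near to 0 as -0.0086. Cytosolic malate dehydrogenase (Mdh1) gave 30293, 37497, 35102 and 35447 units without treatment and 19538, 21911, 19791 and 26906 after Th1 supernatant (-0.66 ± 0.13, adjusted p = 0.0014, and as near to 0 as -0.37 under other processing), while mitochondrial Mdh2 differed by 0.13 ± 0.09 and fumarase (Fh1) by -0.17 ± 0.14.

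**Figure D2:**
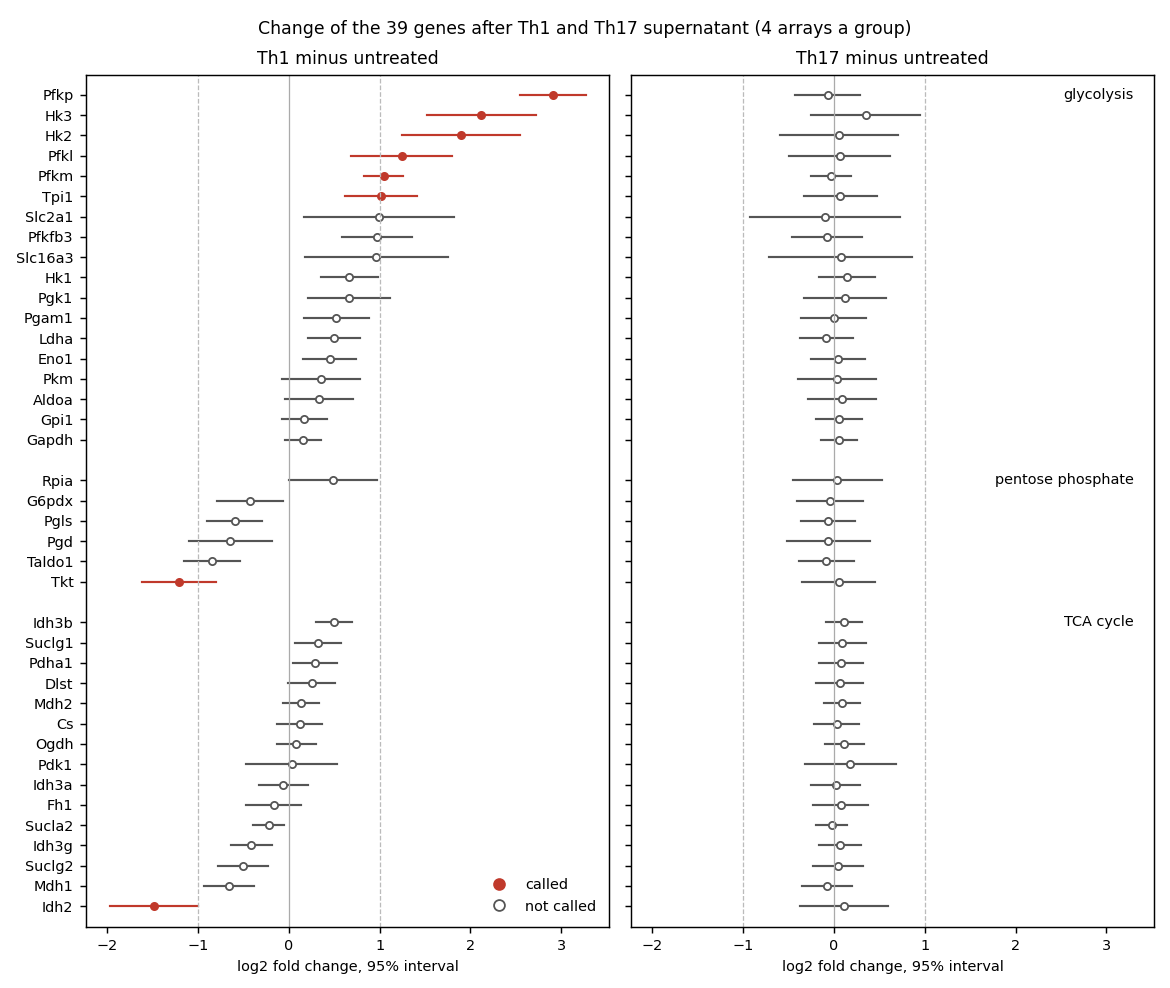
Log2 fold changes of the 39 genes with 95% confidence intervals from the limma fit, 4 arrays a group, for Th1 against untreated (left) and Th17 against untreated (right). Filled red points are called, open points are not, and dashed lines mark a 2-fold change. The 8 called genes are all in the left panel, and every interval in the right panel includes 0 and lies between the dashed lines.

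Counting changes of any size at an adjusted p under 0.01, 10 members were higher and 7 lower after Th1 supernatant, where 13.9% of all genes were higher and 16.2% lower. The 9 glycolytic members among the 10 were the 6 called ones, Pfkfb3, Hk1 and Ldha, and the other was Idh3b. The 7 lower ones were Tkt, Taldo1, Pgls, Idh2, Mdh1, Suclg2 and Idh3g. These 17 members stand against 30.1% of all genes in either direction. At an adjusted p under 0.05 there were 25, where 44.3% of all genes passed.

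The experiments differed in how far glycolysis moved. Within an experiment, the median difference of the glycolytic members between Th1 and untreated arrays was 1.02, 0.91, 0.82 and 0.32 in experiments 12, 13, 14 and 16. The pentose phosphate medians were -0.64, -0.40, -1.11 and -0.46, and the TCA cycle medians lay between -0.16 and 0.09. In experiment 16 the hexokinases and Pfkp had differences of 1.76 for Hk3, 1.85 for Hk2 and 2.22 for Pfkp, while Pgk1 differed by 0.08 and Aldoa by 0.08. On untreated arrays 14 and 16, all glycolytic members but Hk2, Hk3, Pfkp and Pfkfb3 gave higher signals than on untreated arrays 12 and 13. The 3 slides each held arrays of all 3 groups, and the glycolysis median was 0.95, 0.63 and 0.32 within slides 1, 2 and 3. The 8 called members differed in the direction of their call in each of the 4 experiments and on each of the 3 slides. The slides are not a check apart from the experiments. Of the untreated and Th1 arrays, slide 3 held only untreated 16 and Th1 16, so that its difference is that of experiment 16. Slide 1 held untreated 12, untreated 13 and Th1 12, and slide 2 held untreated 14, Th1 13 and Th1 14.

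**Figure D3:**
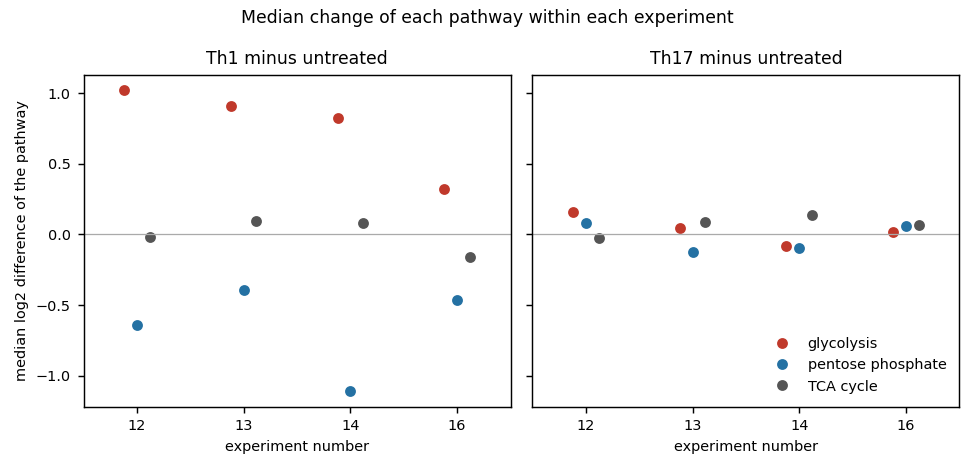
Median log2 difference of the glycolysis (red, 18 genes), pentose phosphate (blue, 6 genes) and TCA cycle members (grey, 15 genes) within each experiment, for Th1 minus untreated (left) and Th17 minus untreated (right), with 1 array of each group per experiment. The glycolysis medians are above 0 in all 4 experiments on the left, and all points on the right lie between -0.13 and 0.16.

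Enzymes of 1 step often exist in several forms, and the balance of 13 such pairs was compared within arrays, as the log2 ratio of their signals. The level of a ratio depends on both probes, and only its difference between groups is read. An exact two-sided permutation test over the 70 ways to split 8 arrays cannot give a p under 0.0286. Between Th1 and untreated arrays 9 of the 13 pairs reached that value, which adjustment over the 13 pairs put at 0.0413. The groups did not overlap for these 9, and the adjusted value rests on their tie at the smallest p. Of single genes, the untreated and Th1 arrays did not overlap for 18.8% in the higher and 21.9% in the lower direction. Such a share was not computed for ratios of other gene pairs. Pairs that share a gene are not independent. Hk2 and Hk3 gained on Hk1, by 1.23 and 1.45, and the difference of the Hk3 over Hk2 ratio was 0.22 (adjusted p = 0.83 in the exact test). Pfkp gained 1.66 on Pfkl and 1.86 on Pfkm. Ldha gained 1.69 on Ldhb, the form found in tissues that use lactate, and Slc2a1 gained 2.81 on Slc2a3 (GLUT3), a high-affinity transporter known from neurons. Aldoa gained 2.04 on Aldoc, a form known from astrocytes and neurons. Neither gene of that pair was called. Aldoa itself differed by 0.33, and Aldoc by -1.72 ± 0.54 with overlapping groups (adjusted p = 0.024 in the limma fit). Idh3a, which itself differed by -0.06, gained 1.43 on Idh2, and the Mdh1 over Mdh2 ratio differed by -0.79. The pairs that did not pass were Hk3 over Hk2, Pfkl over Pfkm, Slc16a3 over Slc16a1 (1.09) and Sucla2 over Suclg2 (0.28). The test does not use the experiment numbers, and over 4 experiments a paired exact test could not give a p under 0.125. Within experiments 12, 13, 14 and 16 the Slc16a3 over Slc16a1 ratio was higher on the Th1 array by 1.76, 1.42, 0.95 and 0.21, and the Sucla2 over Suclg2 ratio by 0.40, 0.27, 0.32 and 0.15. Between Th17 and untreated arrays no pair passed, and the smallest adjusted p of the exact test was 0.929. Between Th1 and Th17 arrays 10 of the 13 pairs passed (adjusted p = 0.0371 in the exact test). Slc16a3 over Slc16a1 (0.93) and Sucla2 over Suclg2 (0.35) were among them. Hk3 over Hk2, Pfkl over Pfkm and Aldoa over Aldoc (2.00, adjusted p = 0.068 in the exact test) were not.

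**Figure D4:**
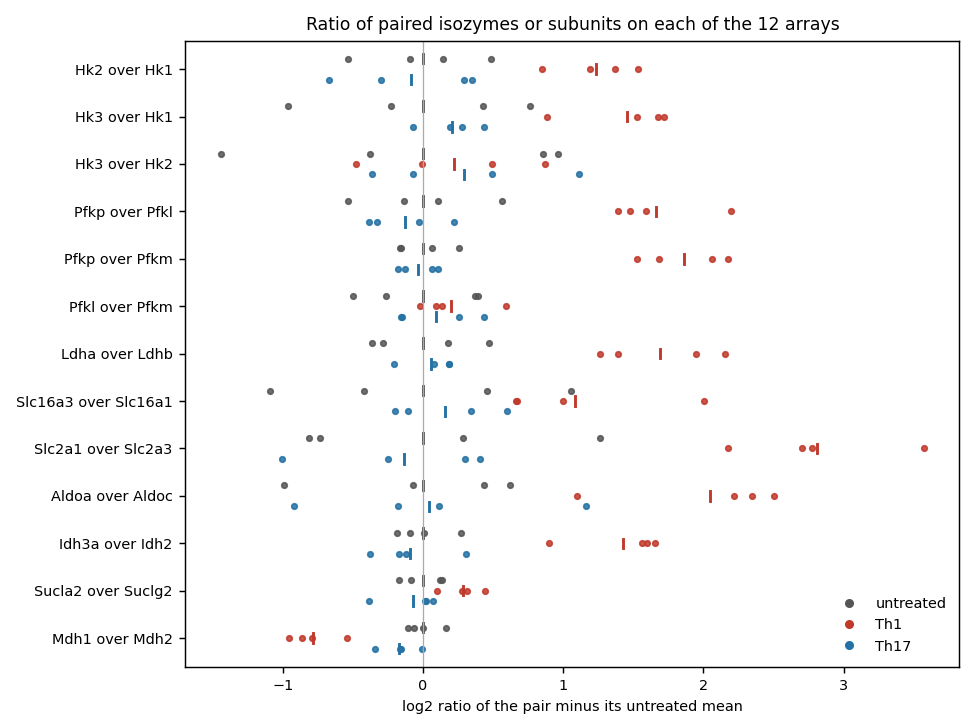
Log2 ratio of the signals of 13 pairs of isozymes, transporters or subunits on each array, as the difference from its mean over the 4 untreated arrays (grey untreated, red Th1, blue Th17, ticks are group means). The red points of 9 pairs lie apart from the grey points, and the Th17 points overlap the grey points in all 13.

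Genes next to the members were taken from lists of other glycolytic, pentose phosphate and TCA cycle genes, of regulators, and of further HIF1A targets. Of 97 listed genes 88 were tested, and after Th1 supernatant 6 rose and 10 fell, where 7.49% of all genes rose and 7.88% fell. The counts given below for each list stand against these same shares. Their median difference was -0.03, and all 16 were above background on every untreated and Th1 array.

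Among other glycolytic genes 2 of 23 rose and 4 fell. Slc2a6 (GLUT6), a transporter of lysosomal membranes, rose 21.7-fold (4.44 ± 0.31, adjusted p = 9.6e-07), with 4748 to 12267 units without treatment and 135735 to 162604 units after Th1 supernatant. Pgm1, which links glycogen to glycolysis, rose (1.21 ± 0.17, adjusted p = 0.00019). Slc2a3 (-1.82 ± 0.20), Slc2a8 (-1.35 ± 0.22), the neuronal enolase Eno2 (-1.53 ± 0.35) and Ldhb (-1.19 ± 0.18) fell, with adjusted p of 2.6e-05, 0.00044, 0.0044 and 0.00026. The glucose transporters thus moved in both directions, and lactate dehydrogenase B fell while Ldha was higher on every Th1 array.

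Of 7 other pentose phosphate genes none rose and 2 fell. These were Prps2 (-1.61 ± 0.18, adjusted p = 2.7e-05) and Prps1 (-1.23 ± 0.22, adjusted p = 0.00076), the synthetases that turn ribose 5-phosphate into the precursor of nucleotides. They lie downstream of the pathway's ribose output, and with Tkt they were lower in all 4 experiments.

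Of 27 other TCA cycle genes 2 rose and 2 fell. Acod1, which diverts cis-aconitate from the cycle to itaconate, gave 922 to 4765 units without treatment and 165256 to 193670 units after Th1 supernatant, a rise of 94.5-fold (6.56 ± 0.65, adjusted p = 1.2e-05). Pdk3, a kinase that inhibits pyruvate dehydrogenase, rose 3.86-fold (1.95 ± 0.16, adjusted p = 2.9e-06), whereas the member Pdk1 differed by 0.03. Malic enzyme Me1 fell 7.31-fold (-2.87 ± 0.42, adjusted p = 0.00020), and cytosolic isocitrate dehydrogenase Idh1 fell 4.73-fold (-2.24 ± 0.27, adjusted p = 5.0e-05). Both make NADPH in the cytosol, as G6pdx and Pgd do, and Idh2 makes it in mitochondria.

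Of 19 regulators 2 rose and 2 fell. Hif1a gave 2628, 3104, 4148 and 2933 units on untreated arrays 12, 13, 14 and 16, and 11842, 12703, 17984 and 8087 units on the Th1 arrays, and it rose 3.85-fold (1.95 ± 0.21, adjusted p = 2.7e-05). Experiment 16 had the lowest of the 4 Th1 signals. Ppargc1b, a coactivator of mitochondrial genes, rose 8.48-fold (3.08 ± 0.21, adjusted p = 6.8e-07). Myc, which also drives glycolytic genes, fell 4.13-fold (-2.05 ± 0.45, adjusted p = 0.0033). Egln3, a prolyl hydroxylase that marks HIF1A for breakdown and is itself a HIF1A target, fell 4.71-fold (-2.24 ± 0.54, adjusted p = 0.0056), though its groups overlapped. Of 12 further HIF1A targets outside the pathways none was called, 4 differences were positive and 8 negative, and the median was -0.06. Higd1a alone of them had an adjusted p under 0.01 (0.98 ± 0.14, adjusted p = 0.00016), just under 2-fold. The untreated and Th1 arrays did not overlap for 2 of the 12 in the higher and 1 in the lower direction, against 18.8% and 21.9% of all genes.

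**Figure D5:**
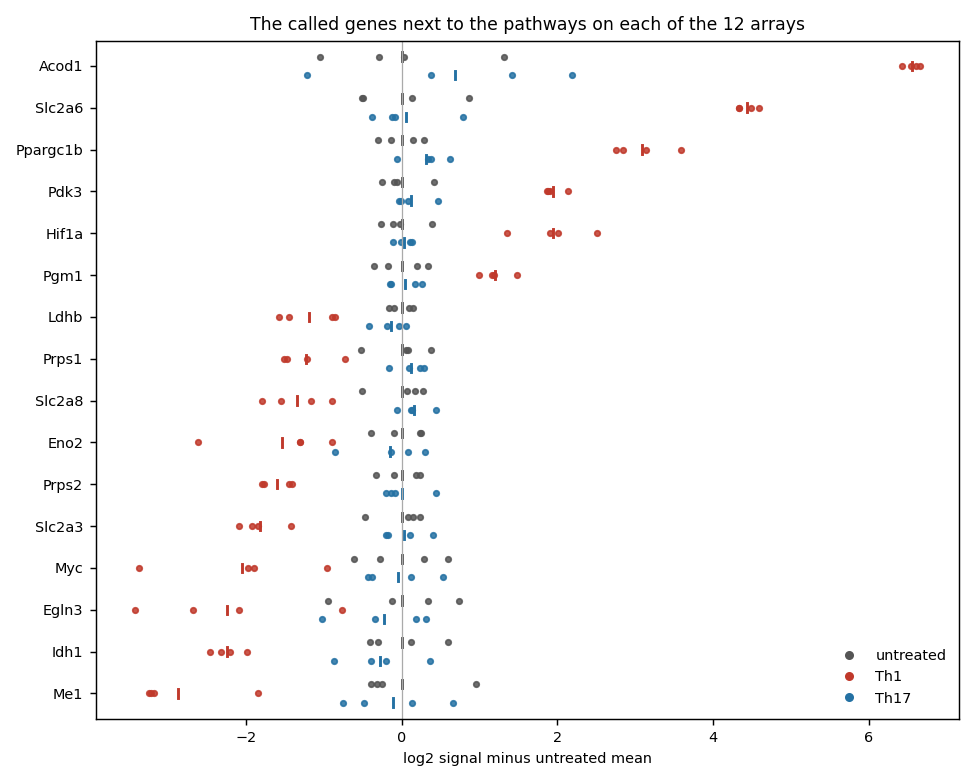
Log2 signal of the 16 called genes next to the pathways on each array, as the difference from the mean of the 4 untreated arrays (grey untreated, red Th1, blue Th17, ticks are group means). Acod1, Slc2a6 and Ppargc1b stand farthest to the right after Th1 supernatant and Me1, Idh1 and Egln3 farthest to the left.

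Th17 supernatant gave no called member, as it gave no called gene among all 19802 tested (limma, Benjamini-Hochberg), 0% of them. At an unadjusted p under 0.05 there were 325 of all genes and 0 of the members. This fit leaves differences between experiments in the spread, which can raise its p and widen the intervals below. With the experiment number as a block, 0 members were called as well. The groups overlapped for every member, against 0.975% of all genes that did not overlap. The differences from untreated arrays ran from -0.10 for Slc2a1 to 0.35 for Hk3, and the 95% intervals of all 39 members included 0 and stayed within a 2-fold change in either direction, from -0.92 to 0.95. The medians were 0.05 for glycolysis, -0.05 for the pentose phosphate pathway and 0.07 for the TCA cycle. Widest among the intervals was that of Slc2a1 (-0.92 to 0.72), and for Pfkp, which rose most after Th1 supernatant, the interval was -0.43 to 0.29.

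Set directly against Th17 arrays, the Th1 arrays had 6 members higher and 2 lower, where 6.89% of all genes were called higher, 7.91% lower and 14.8% in either direction. This comparison shares its Th1 arrays with the one against untreated arrays. Higher were Pfkp (2.97 ± 0.16, adjusted p = 1.9e-07), Hk2 (1.84 ± 0.30), Hk3 (1.77 ± 0.27), Pfkl (1.18 ± 0.25), Pfkm (1.08 ± 0.10) and Pfkfb3 (1.05 ± 0.18), and lower were Tkt (-1.26 ± 0.18) and Idh2 (-1.60 ± 0.22). Tpi1, at 0.94 ± 0.18, was under 2-fold here. With no fold minimum 16 members passed at an adjusted p under 0.01 and 21 at 0.05, where 29.2% and 43.3% of all genes passed. Without experiment 14 the number called was 6 rather than 8, as Pfkl kept its size (1.17) at an adjusted p of 0.013, and Pfkfb3 was under 2-fold (0.96, adjusted p = 0.010). The call of Pfkl was also lost without Th1 14 (1.10, adjusted p = 0.0105) and without Th17 12 (1.07, adjusted p = 0.0109). That of Pfkfb3 was also lost without Th17 13 (0.98) and without Th17 14 (0.99). Pfkm was at 0.98 with normexp background correction, and Tkt at -0.97 with 75th percentile scaling alone or the value table, both just under 2-fold. With the experiment number as a block it was 9, with Slc2a1 added (1.09, adjusted p = 0.0029). The pathway medians were 0.74 for glycolysis, -0.56 for the pentose phosphate pathway and -0.08 for the TCA cycle.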

How the data were processed

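Total RNA of 12 microglia cultures was measured on Agilent 4x44K mouse arrays in 1 colour (Cy3), 4 arrays a slide. Per the file headers, the authors extracted spot values with Agilent Feature Extraction 10.7.3.1. In the deposited scanner files these are linear intensity values, background-subtracted and not scaled between arrays. The deposited value table holds log2 values of the same arrays, and its scale and centring are not stated. Its columns correlated with log2 signal scaled to the 75th percentile and centred on each probe's median (Pearson r at least 0.999993 across probes), with column medians from -0.225 to 0.180. It served as an alternative.

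Control spots and the 103 to 230 spots per array marked as outliers or non-uniform were left out, and no spot was saturated. Spots of a probe were averaged by the geometric mean, and values were quantile normalised, scaled so that the 75th percentile was 1500, raised to a floor of 15 and put on the log2 scale, after the study's methods. Of 39429 probes, the 24287 that were well above background on at least 4 arrays were kept. Accessions were named through RefSeq (GRCm38.p6, used for names and promoters), which gave a symbol for 27234 probes and for 13953 of 19802 genes. The kept probe of highest mean signal stood for a gene. Of the members 9 had several probes, and Ogdh had a probe that differed from the one in use by over 2-fold.

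Groups came from the sample labels. The comparisons used limma 3.58.1 (R 4.3.3) fitted to all 12 arrays with a mean for each group, adjusted by Benjamini-Hochberg over all genes. The study describes 4 independent experiments. Arrays of the same experiment number deviated from their group means together (correlation 0.244 to 0.634 over 12 pairs). The number was therefore taken to pair the samples and served as a block in an alternative. Experiments 12 and 16 each lay on 1 slide, so that experiment and slide cannot be told apart there. Pairs on different slides gave 0.293 and 0.280 in experiment 13 and 0.584 and 0.266 in experiment 14. Ratios of isozymes were compared with an exact permutation test. Alternatives changed the scaling, the background correction, the floor, the filter, the probe rule, the block and the arrays included. Normexp was run on the median spot signal, since the files used here hold no mean spot signal. Precision is limited by the number of arrays. The fit was tested on simulated data, with noise drawn independently for each array, so that shared deviations within an experiment were not covered. The text names all members, gives values by array for called members, their isozymes and members near a threshold, and names the called genes of the other lists. The members and lists were chosen with earlier results of these data known.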

Additional observations from a re-analysis of the deposited data

Results flagged for a closer look

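A single array stood far from the 3 others of its group in 5 of 117 sets of 4 arrays (39 members in 3 groups), where chance alone gives about 1 in 20, or 5.85. Hk1 gave 7706 units on untreated 12, against 10527 to 11070 on the other untreated arrays. Pfkfb3 gave 8243 units on untreated 16, against 5612 to 5992 on the others. Pfkfb3 also gave 10026 units on Th1 13, against 12983 to 13600 on the other Th1 arrays. Both Pfkfb3 arrays lowered its difference between Th1 and untreated arrays, which was 1.10 without untreated 16 and 1.08 without Th1 13. G6pdx gave 55404 units on untreated 14, against 33951 to 35209 on the others. Pdha1 gave 3694 units on Th17 14, against 4385 to 4519 on the other Th17 arrays.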

How the results depend on the processing

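No pathway median of Th1 against untreated arrays for glycolysis or the pentose phosphate pathway changed sign under any alternative. Of the called members, Hk2, Hk3, Pfkl, Pfkp and Idh2 stayed called between Th1 and untreated arrays in all 19 other settings, Pfkm and Tkt in 17 and Tpi1 in 15. Between Th1 and Th17 arrays Hk2, Hk3, Pfkp and Idh2 stayed called in all 19, Pfkm in 18, Tkt in 17, and Pfkl and Pfkfb3 in 16. Leaving out 1 array at a time gave 7 to 9 called members against untreated arrays and 7 to 9 against Th17 arrays. It gave TCA cycle medians of -0.116 (without untreated 14) to 0.109 against untreated arrays and of -0.145 (without Th17 12) to -0.0186 against Th17 arrays, and glycolysis medians of -0.0688 (without untreated 12) to 0.126 for Th17 against untreated arrays. Without experiment 14, an alternative added after seeing the data, the TCA cycle median was -0.106 for Th1 against untreated arrays. With scaling to the 75th percentile alone, the medians of Th1 against Th17 arrays were -0.297051 for the pentose phosphate pathway and 0.109732 for the TCA cycle, and with the value table -0.297214 and 0.109569. Without a fold minimum, 17 members and 28 other genes passed at an adjusted p under 0.01 for Th1 against untreated arrays, and 16 and 29 for Th1 against Th17 arrays. At 0.05 these were 25 and 42, and 21 and 44. With the replicate block, 8 members and 18 other genes were called against untreated arrays, and 9 and 20 against Th17 arrays, and the block changed no other call of a member than that of Slc2a1 against Th17 arrays. Of the members, Idh3a and Fh1, both not called, changed sign between Th1 and untreated arrays under other processing. The cause of these changes was not tested.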
